A study of Mus musculus with 8 samples.

Results

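The olfactory receptor clusters of the mouse genome were followed through 8 Hi-C maps of mouse embryonic stem cells (mESCs). Hi-C counts how often pairs of genomic positions touch in fixed nuclei, and a compartment score summarises each map in bins of 100 kb. A positive score places a bin in the A compartment, where active chromatin gathers, and a negative score in the B compartment, where silent chromatin gathers. The score is an eigenvector value and has no physical unit. The clusters were taken as all autosomal bins that hold at least 2 start sites of protein-coding genes with the symbol prefix Olfr in GENCODE vM21 (mm10). This rule used gene positions only and no score. It found 284 bins among the 23972 scored in all 8 libraries, and these bins held 1079 of the 1128 autosomal protein-coding Olfr genes. Another 49 bins with a single Olfr start were left out. Joining bins of the same chromosome across gaps of up to 1 Mb gave 38 loci on 15 chromosomes.

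The study asked how H3K9 methyltransferases shape the compartments. Of the 8 groups, 4 came from line #33-6, a Setdb1 conditional knockout grown as it is (Setdb1 WT), with the G9a/GLP inhibitor UNC0642 at 2 µM for 3 days (Setdb1 WT + UNC), with 4-hydroxytamoxifen (4-OHT) at 800 nM for 5 days to remove SETDB1 (Setdb1 KO), or with 4-OHT for 2 days and then UNC0642 for 3 days (Setdb1 KO + UNC). The other 4 groups were a wild-type clone (Suv39h WT), a clone lacking SUV39H1 and SUV39H2 (Suv39h DKO), and the same clones given UNC0642 at 2 µM for 3 days (Suv39h WT + UNC and Suv39h DKO + UNC). All cells were grown in serum replacement medium with LIF on gelatin. The Suv39h WT and Suv39h DKO cells are separate clones, so genotype and clone cannot be told apart, and the 4-OHT itself was given only to the Setdb1 KO groups. Each group had 1 library. The study describes its Hi-C as repeated, and whether each file holds a repeat or a pool is not stated.

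Olfactory receptors are odorant-binding membrane receptors of the sensory neurons of the nose, and their genes form the largest gene family of the mouse. The genes lie in clusters. Each neuron keeps a single allele of a single receptor gene active, while the other clusters stay packed in heterochromatin that carries H3K9 and H4K20 methylation and gather in the nucleus. SETDB1, SUV39H1/2 and G9a/GLP are methyltransferases that place methyl groups on H3K9. Stem cells do not use these receptors.

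The deposited scores average 0 on every chromosome of every library, so a general rise or fall cannot appear and each change is relative to the rest of the chromosome. Of the bins that hold 10 stem cell markers, 9 were in the A compartment in all 8 libraries and the bin of Dppa4 in all libraries except Setdb1 WT + UNC, where its score was -0.000449. The library labelled Setdb1 WT + UNC stood apart from its line. Over the 284 Olfr bins its mean Pearson r was 0.927 with the 3 remaining libraries from line #33-6 but 0.959 with the 4 Suv39h libraries, while for the other 7 libraries the mean r was higher with their own line (0.956 to 0.966) than with the other line (0.914 to 0.940). Over all bins the values for Setdb1 WT + UNC were 0.972 and 0.976. The main counts and tests that rest on it are given with and without it, or beside the untreated pair, which does not use it.

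Sequence before a RefSeq gene start is shown for the loci with the largest mean differences between libraries, to give the base composition and motifs near their receptor genes. Of the 1079 Olfr genes, 879 matched a single window of this kind in RefSeq (GRCm38.p6). RefSeq and GENCODE place the starts differently: they were within 50 bases of each other for 121 genes and over 1000 bases apart for 682. The loci were built from the GENCODE starts, and these windows lie before the RefSeq starts, so the windows need not be promoters. The sequences below are the 250 bases before the RefSeq start of the first gene by position, in the 4 loci of at least 2 bins with the largest mean change in any contrast, whose window overlaps no annotated exon. The 1 gene ahead of Olfr829 and the 3 ahead of Olfr725 were passed over for that reason, and the chromosome 16 locus Olfr165 to Olfr171 had no such gene. The contrast was SETDB1 loss under UNC0642 for the loci of Olfr829 and Olfr725 and for Olfr165 to Olfr171, and it uses the Setdb1 WT + UNC library. For the locus of Olfr1396 it was the difference between the untreated wild-type libraries of the Setdb1 and Suv39h lines. Each window lies inside the GENCODE gene, and the RefSeq start that follows it is 1694 bases from the GENCODE start in Olfr829, 1117 in Olfr1396 and 4875 in Olfr725. Capitals mark matches on either strand to TAATTA, the homeodomain core, or TATAAA, the TATA box.
Olfr829 (chr9:18856377-18856626, plus strand): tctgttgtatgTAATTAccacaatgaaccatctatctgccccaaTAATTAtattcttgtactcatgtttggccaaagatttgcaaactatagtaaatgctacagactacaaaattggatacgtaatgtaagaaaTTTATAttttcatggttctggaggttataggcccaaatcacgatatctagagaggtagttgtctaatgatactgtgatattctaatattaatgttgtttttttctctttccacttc
Olfr1396 (chr11:49113758-49114007, minus strand): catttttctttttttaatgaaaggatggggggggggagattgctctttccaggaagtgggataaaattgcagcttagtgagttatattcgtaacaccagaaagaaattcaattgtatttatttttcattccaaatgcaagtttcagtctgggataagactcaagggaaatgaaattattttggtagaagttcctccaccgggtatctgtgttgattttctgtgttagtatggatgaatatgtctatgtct
Olfr725 (chr14:50035501-50035750, minus strand): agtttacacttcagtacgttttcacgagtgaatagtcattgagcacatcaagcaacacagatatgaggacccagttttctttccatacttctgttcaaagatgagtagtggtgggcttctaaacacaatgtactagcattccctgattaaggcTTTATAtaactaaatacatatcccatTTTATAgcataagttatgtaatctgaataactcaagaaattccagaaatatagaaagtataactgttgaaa
These windows are rich in A and T, with a GC content of 32%, 36% and 33.6%. Olfr829 holds 2 matches to TAATTA and 1 to TATAAA, Olfr725 holds 2 to TATAAA, and Olfr1396 holds none. Neither these 3 windows nor most Olfr windows hold CCCNNGGG, the core bound by EBF factors: it occurred on either strand in 2.39% of the 879 Olfr windows and in 12% of the 31396 autosomal windows of the same length. TAATTA occurred in 18.7% and 4.81%, and TATAAA in 39% and 12.4%. The median GC content was 33.6% in the Olfr windows and 52.4% in all windows, and no sequence match shows that a factor binds. Matches to TAATTA and TATAAA can overlap, and in these windows none did.

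The Olfr bins lay mostly in the B compartment in every library. In Setdb1 WT, 13% of the 284 bins were in the A compartment (95% Wilson interval 9.6 to 17.4), against 44.5% of all bins. UNC0642 alone gave 12.7%, SETDB1 loss 14.8% and both together 15.1%. The wild-type clone of the Suv39h pair had 12.0%, or 10.9% with UNC0642, and the DKO clone 12.3%, or 11.6% with UNC0642. The 8 intervals overlap one another, and none reaches the share of all bins, which ran from 44.5% to 46.3%. They cover counting error only and are narrower than they should be, because adjacent bins share contacts.

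**Figure D1:**
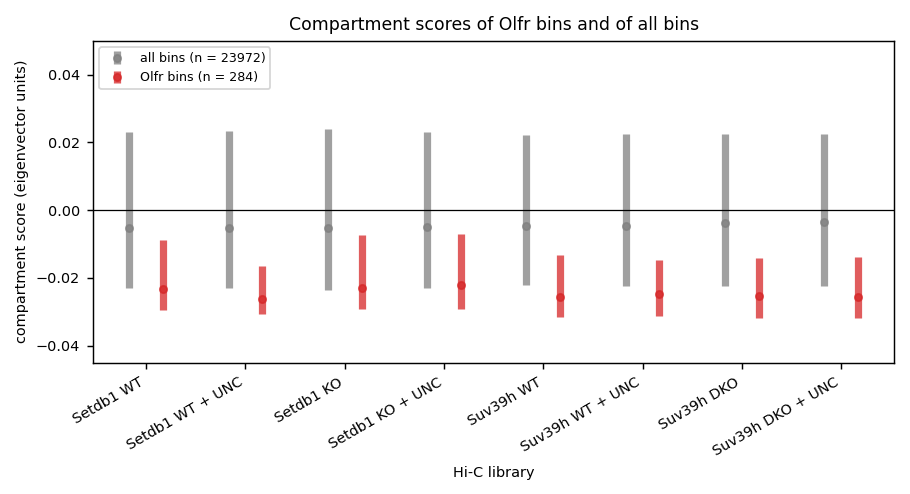
Median compartment score (eigenvector units, dots) and interquartile range (bars) of the 284 Olfr bins (red) and of all 23972 bins (grey) in each Hi-C library. The Olfr medians sit between -0.0263 and -0.0222 and the medians of all bins between -0.00523 and -0.00345.

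The same bins held their side across libraries. Of the 284 Olfr bins, 232 were in the B compartment in all 8 libraries, 26 in the A compartment in all 8, and 26 changed side in at least 1 library. These are 81.7%, 9.15% and 9.15% of the members, against 48.0%, 38.9% and 13% of all bins. Bins with more receptor genes had lower scores up to 5 starts: the median score over the 8 libraries was -0.0139 in the 62 bins with 2 Olfr starts, -0.0227 in the 73 bins with 3, -0.0243 in the 65 bins with 4 and -0.0280 in the 45 bins with 5. It was -0.0273, -0.0262 and -0.0266 in the bins with 6, 7 and 8 starts, no lower than with 5, and all 13 bins with 7 starts and both bins with 8 were B in every library. Just outside the rule, the 49 bins with a single Olfr start had medians between -0.00726 and 0.00747 across the libraries, and just inside it the bins with 2 starts had medians between -0.0187 and -0.00968.

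By locus, 22 of the 38 loci had a mean score below 0 in all 8 libraries. They held 244 of the 284 bins and 953 of the 1079 Olfr genes. Another 11 loci, with 26 bins and 82 genes and no more than 5 bins each, were above 0 in all 8, and 5 loci had means on either side of 0. The range of a locus mean over the 8 libraries had a median of 0.00757 and ran from 0.00174 to 0.0320.

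**Figure D2:**
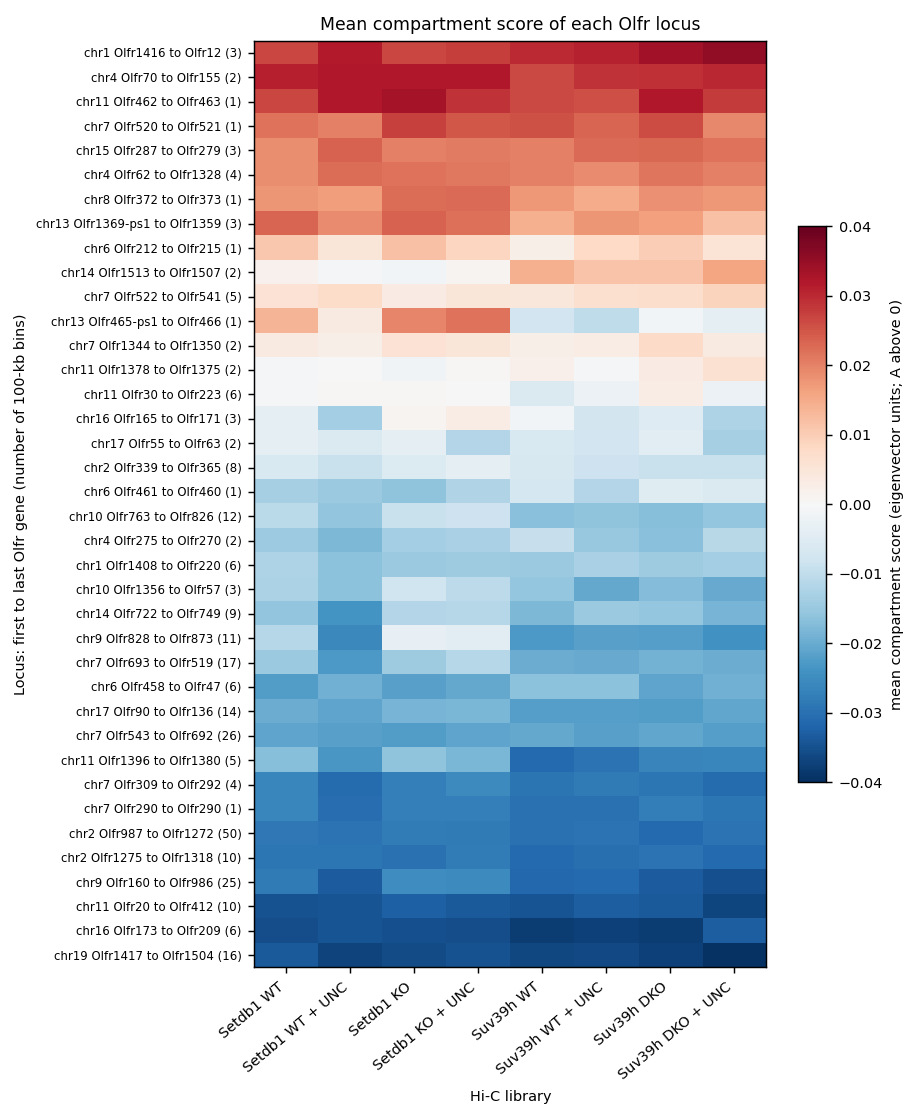
Mean compartment score (colour, eigenvector units) of each of the 38 Olfr loci (rows, named by chromosome and first and last Olfr gene, with the number of 100-kb bins) in each of the 8 Hi-C libraries (columns), ordered by the mean over libraries. Red rows at the top are loci in the A compartment, blue rows in the B compartment; the row of Olfr828 to Olfr873 is near white in the SETDB1-depleted libraries (-0.00325, and -0.00465 with UNC0642) and blue in Setdb1 WT + UNC (-0.0257).

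The 2 loci with the most bins had the smallest ranges of the mean over the libraries. Averaging over more bins can narrow such a range, and the loci were not matched for bin number. The chromosome 2 locus Olfr987 to Olfr1272 (chr2:85300001-90300000) held 226 Olfr genes in 50 bins. In the Setdb1 line its mean score was -0.0286 untreated, -0.0295 with UNC0642, -0.0281 after SETDB1 loss and -0.0282 after SETDB1 loss with UNC0642. In the Suv39h lines it was -0.0297 in the wild type and -0.0295 with UNC0642 added, and -0.0310 in the DKO and -0.0295 with UNC0642 added. All 8 means lie within 0.00286 of each other, and the mean score of its single bins ran from -0.0353 to -0.0214, so all 50 bins were deep in the B compartment.

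The class I locus on chromosome 7, Olfr543 to Olfr692 (chr7:102400001-105400000), had the smallest range of the mean among the 38 loci. Class I receptors are the fish-like branch of the family, and their genes surround the beta-globin genes. The locus held 129 Olfr genes in 26 bins. In the Setdb1 line its mean score was -0.0212 untreated, -0.0216 with UNC0642, -0.0224 after SETDB1 loss and -0.0212 after SETDB1 loss with UNC0642. In the Suv39h lines it was -0.0206 in the wild type and -0.0218 with UNC0642 added, and -0.0207 in the DKO and -0.0220 with UNC0642 added. The span of these means was 0.00174. The bin with the 5 beta-globin genes (Hbb-bt, Hbb-bs, Hbb-bh2, Hbb-bh1 and Hbb-y), Olfr66 and Olfr64 had a mean score of -0.0201, close to the bins on either side (-0.0263 and -0.0240). The first bin, which also holds the start of Rrm1, a subunit of ribonucleotide reductase, was in the A compartment with 0.0172.

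**Figure D3:**
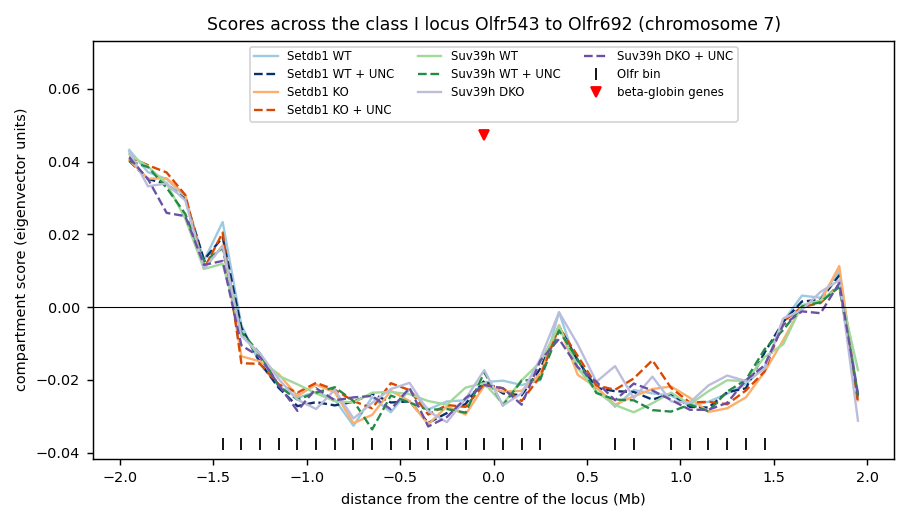
Compartment score (eigenvector units) of each 100-kb bin across the class I locus and 500 kb on either side, against the distance from the centre of the locus in Mb, 1 line for each library (dashed with UNC0642), with ticks at Olfr bins and a triangle at the beta-globin bin. The 8 lines run together, below 0 inside the locus after the first Olfr bin (mean 0.0172), and are above 0 on the left side, while on the right they come above 0 and drop below it again in the last bin shown.

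Among the other large loci, the chromosome 9 locus Olfr160 to Olfr986 (chr9:37700001-40200000, 25 bins, 95 Olfr genes) had means between -0.0351 in Suv39h DKO + UNC and -0.0250 in Setdb1 KO. The chromosome 7 locus Olfr693 to Olfr519 (chr7:106600001-108900000, 17 bins, 68 genes) was lowest in Setdb1 WT + UNC at -0.0230 and highest in Setdb1 KO + UNC at -0.0115. The chromosome 19 locus Olfr1417 to Olfr1504 (chr19:11800001-13900000, 16 bins, 63 genes) was the lowest of all, with a mean over the libraries of -0.0363 and library means from -0.0396 to -0.0336. Next lowest was Olfr173 to Olfr209 on chromosome 16 (chr16:58800001-59400000, 6 bins) with -0.0359, from -0.0380 to -0.0330. Both lay in the B compartment in every library.

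The loci in the A compartment were small. The highest were Olfr1416 to Olfr12 on chromosome 1 (chr1:92400001-92700000, 3 bins), with a mean over libraries of 0.0303 and library means from 0.0267 to 0.0354, and Olfr70 to Olfr155 on chromosome 4 (chr4:43700001-43900000, 2 bins), also with 0.0303 and from 0.0263 to 0.0321. All 11 such loci lay between flanks whose mean score was above 0 as well.

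The 5 loci with means on either side of 0 were near 0 or differed between the lines. Olfr30 to Olfr223 on chromosome 11 (chr11:58400001-59600000, 6 bins) had means from -0.00581 in Suv39h WT to 0.00284 in Suv39h DKO, and its single bins ran from -0.0200 to 0.0405. Olfr165 to Olfr171 on chromosome 16 (chr16:19400001-19700000, 3 bins) had negative means in 6 libraries. In the Setdb1 line its mean score was -0.00368 untreated, -0.0135 with UNC0642, 0.00110 after SETDB1 loss and 0.00290 after SETDB1 loss with UNC0642. In the Suv39h lines it was -0.00116 in the wild type and -0.00724 with UNC0642 added, and -0.00515 in the DKO and -0.0124 with UNC0642 added. The means were above 0 only in the SETDB1-depleted libraries. Olfr1513 to Olfr1507 on chromosome 14 (chr14:52300001-52500000, 2 bins) had means from -0.00122 to 0.00186 in the Setdb1 line and from 0.0115 to 0.0157 in the Suv39h lines, with no overlap. Olfr1378 to Olfr1375 on chromosome 11 (chr11:50900001-51100000, 2 bins) had means from -0.00126 to 0.00616. The single bin of Olfr465-ps1 and Olfr466 on chromosome 13 was the fifth.

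Most Olfr loci scored lower than their flanks. For each locus the mean was set against up to 5 bins without 2 Olfr starts on each side. In 34 of the 38 loci the score was lower than in the flanks, by a median of 0.0114 over all loci (locus minus flank -0.0114), and this held for all 22 loci in the B compartment and for 9 of the 11 in the A compartment. The gap was as small as -0.000304 in Olfr309 to Olfr292 on chromosome 7. The B loci were named from the same scores, and no windows outside the Olfr loci were compared with their flanks. In 9 of the 22 B loci the flanks averaged above 0. The largest gap was in Olfr160 to Olfr986, at -0.0304 between flanks at 0.0171, a difference of -0.0475. Within the 18 loci of at least 5 bins, the first and last Olfr bins were higher than the inner ones in 15, with a median difference of 0.00529. The largest difference was in Olfr90 to Olfr136 on chromosome 17, where the end bins averaged 0.00379 and the inner bins -0.0248.

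The bins shared features that the rule did not use. Their median GC content was 38.6%, against 41.4% in all bins, and 45.8% of their bases were soft-masked as repeats, against 31.6%. The density of GATC, the site cut by DpnII in the assay, was 2.77 per kb against 2.47 per kb, so cutting sites were not scarcer in these bins. Of the Olfr bins, 73.9% held no start of another protein-coding gene, against 59.1% of all bins (Olfr starts not counted).

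These features also divided the Olfr bins among themselves. The 26 bins that were A in all libraries had a median GC content of 43.8% and 34.2% soft-masked bases, and 23.1% of them held no other gene start. The 232 bins that were B in all libraries had 38.3% GC, 47.3% soft-masked bases and no other gene start in 81.0%. Across the 284 bins the mean score over the libraries had a Spearman rho of 0.575 with GC content, 0.416 with the number of other gene starts, -0.266 with the soft-masked share, -0.229 with the number of Olfr starts and 0.0221 with GATC density. Over all bins rho with GC content was 0.786. These are descriptions across bins, which share chromosomes and neighbours. When a linear fit of the score on GC content over all bins was removed from each library, the Olfr bins lay nearer to the rest. In Setdb1 WT 81.3% of them were below the median of all bins before this step and 53.5% after it. In Suv39h WT the shares were 84.2% and 61.3%. The medians of the Olfr bins after this step were between -0.00466 and -0.00239, and those of all bins between -0.00155 and -0.000948.

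Other chemoreceptor families gave a range. The 60 bins with at least 2 starts of Vmn1r genes, pheromone receptors of the vomeronasal organ, had medians from -0.0196 to -0.0117 across the libraries, and the 21 bins of Vmn2r genes, the second vomeronasal family, from -0.0279 to -0.0204. The 3 bins of Taar genes, trace amine receptors of the nose, had medians from -0.000750 to 0.0239 and were all in the A compartment in 4 of the 8 libraries. The Vmn2r medians are nearest to those of the Olfr bins. No difference between the families was tested.

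The genes that work with the receptors were mostly in the A compartment, as were most bins with genes. Of 26 bins with genes of olfactory transduction and receptor choice, 24 (92.3%) were A in all libraries, against 38.9% of all bins and 65.8% of the 9807 bins with a protein-coding start other than Olfr. No test was made of this difference. They include Adcy3, the adenylyl cyclase of olfactory cilia (0.0327 to 0.0419), Omp, the marker of mature olfactory neurons (0.0280 to 0.0332), Lhx2, the homeodomain factor of olfactory neurons (0.0170 to 0.0215), Ldb1, its partner in receptor gene hubs (0.0583 to 0.0675), and Lbr, the lamin B receptor (0.0294 to 0.0398). The 2 bins that were B in all libraries hold Cnga4, a subunit of the olfactory cyclic nucleotide channel that lies at the border of the class I locus (-0.0102 to -0.00311), and Ebf1 (-0.0153 to -0.00437).

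Among 10 well-studied receptor genes in 9 bins, 6 bins (66.7%) were B in all libraries, beside 48.0% of all bins and 81.7% of the Olfr bins. They include Olfr73, a eugenol receptor (-0.0309 to -0.0261), Olfr78, also expressed in the carotid body (-0.0222 to -0.0184), and Olfr2 and Olfr17, which share a bin (-0.0285 to -0.0204). Olfr545, in the first bin of the class I locus (0.0119 to 0.0234), and Olfr15, alone in its bin and so no member (0.0144 to 0.0431), were A in all. The bin of Olfr1507, the receptor gene next to the H enhancer, ran from -0.0209 to -0.0120 in the Setdb1 line and from -0.00347 to 0.00132 in the Suv39h lines.

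Loss of SETDB1 went with higher scores in part of the Olfr bins, with the largest change of a locus mean on chromosome 9, but no Olfr bin passed the test. The larger counts rest on the library labelled Setdb1 WT + UNC. Of the 284 bins, 125 (44.0%) were higher in both pairs of libraries (knockout against wild type, untreated and with UNC0642), and 46 (16.2%) were lower in both, against 25% and 29.4% of all bins. In the untreated pair by itself 159 (56.0%) were higher and 125 lower, where 48.6% of all bins were higher. In the UNC0642 pair 204 (71.8%) were higher and 80 lower, where 47.1% of all bins were higher. Without UNC0642, 6 Olfr bins in 4 loci rose by at least 0.01 and 2 fell, or 2.11% and 0.704%, against 1.4% and 0.88% of all bins. With UNC0642, 45 Olfr bins in 12 loci rose and 1 fell, or 15.8% and 0.352%, against 7.16% and 5.79% of all bins. The share that rose was larger among the Vmn1r bins, where 7 of 60 (11.7%) rose without UNC0642 and 15 of 60 (25%) with it, so the rise was not particular to the Olfr bins. Of the 21 Vmn2r bins 1 rose without and 3 with UNC0642 (4.76% and 14.3%), and of the 3 Taar bins 0 and 2. These differences between families were not tested. The median change of the Olfr bins was 0.000733 without and 0.00249 with UNC0642, beside -0.000122 and -0.000425 over all bins. A difference between 2 libraries has no replicate check.

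**Figure D4:**
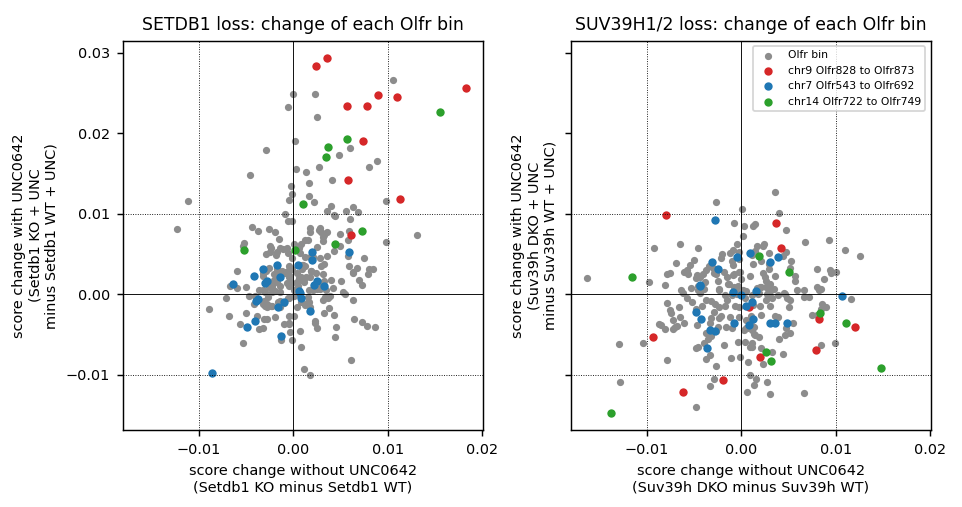
Change of the compartment score (eigenvector units) of each of the 284 Olfr bins without UNC0642 (horizontal) and with it (vertical), for loss of SETDB1 (left) and of SUV39H1/2 (right), with dotted lines at a change of 0.01 either way and 3 loci in colour. In the left panel the bins of Olfr828 to Olfr873 (red) are all above 0 on both axes, from 0.00237 to 0.0183 and from 0.00739 to 0.0293; in the right panel they lie on both sides of 0.

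The test across all bins pooled the pairs, using limma with the background (line and genotype) as a block, so its error is the departure from additive effects of background and UNC0642 and not the spread between cultures. For SETDB1 loss it called 0 of 23972 bins at an adjusted p under 0.05 (0% of all bins), and the lowest adjusted p of an Olfr bin was 0.274. At an unadjusted p under 0.05, 38 Olfr bins in 12 loci rose (13.4%, against 5.16% of all bins) and 1 fell (0.352%, against 3.94%). Without the Setdb1 WT + UNC library the Setdb1 WT side is 1 library, assumed to vary like the other groups, and 10 rose, or 3.52%, against 2.19% of all bins, and 2 fell, or 0.704%, against 1.6%. The larger share of rising bins thus shrank when that library was left out. Of the 38, 10 were in Olfr828 to Olfr873, 9 in Olfr160 to Olfr986, 6 in Olfr693 to Olfr519 and 3 in Olfr722 to Olfr749.

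The chromosome 9 locus Olfr828 to Olfr873 (chr9:18800001-20300000, 11 bins, 32 Olfr genes) had the largest change of the mean among the 38 loci in both pairs, though not of the median over bins with UNC0642. In the Setdb1 line its mean score was -0.0113 untreated, -0.0257 with UNC0642, -0.00325 after SETDB1 loss and -0.00465 after SETDB1 loss with UNC0642. In the Suv39h lines it was -0.0231 in the wild type and -0.0218 with UNC0642 added, and -0.0219 in the DKO and -0.0242 with UNC0642 added. The SETDB1-depleted libraries were the highest, Setdb1 WT came next, and Setdb1 WT + UNC lay below all 4 Suv39h libraries. The change was 0.00801 without UNC0642 and 0.0211 with it, and all 11 bins were higher in each pair. After SETDB1 loss 4 of the 11 bins were in the A compartment, with UNC0642 as well 3, and in each of the other 6 libraries 0. The flanks moved too: their mean went from 0.00777 to 0.0129 with SETDB1 loss, and from -0.000299 to 0.00932 where UNC0642 was present. Their part in the change of the locus was not tested.

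**Figure D5:**
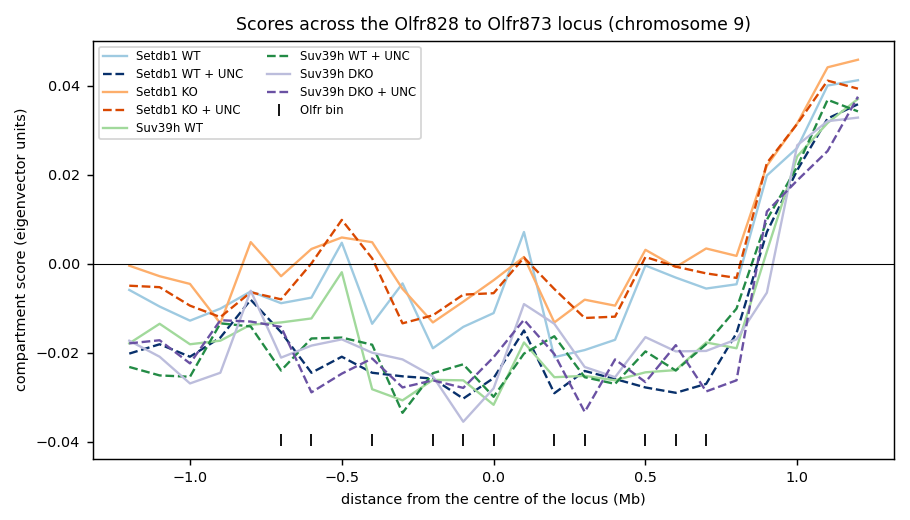
Compartment score (eigenvector units) of each 100-kb bin across the Olfr828 to Olfr873 locus and 500 kb on either side, against the distance from the centre of the locus in Mb, 1 line for each library (dashed with UNC0642), with ticks at Olfr bins. The lines of Setdb1 WT, Setdb1 KO and Setdb1 KO + UNC run above the other 5 over most of the locus, where their means are -0.0113, -0.00325 and -0.00465.

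In 5 Olfr bins the score rose by at least 0.01 in both pairs (1.76%, against 0.567% of all bins), and in 0 it fell in both (0.129% of all bins). None of the 5 holds the start of another protein-coding gene. The bin of Olfr836, Olfr837 and Olfr839-ps1 (chr9:19100001-19200000) went from -0.0135 to 0.00482 with SETDB1 loss and from -0.0245 to 0.00119 when UNC0642 was present, and lay between -0.0282 and -0.0182 in the Suv39h libraries. The limma change was 0.0220 with an SE of 0.00420 and an adjusted p of 0.274, and without the Setdb1 WT + UNC library it was 0.0157 with an SE of 0.00452 and an adjusted p of 1.0. The bin went from the B to the A compartment in both pairs. The bin of Olfr832 and Olfr834 (chr9:18900001-19000000) did so too, from -0.00763 to 0.00330 and from -0.0245 to 5.61e-05, with a limma change of 0.0177, an SE of 0.00351 and an adjusted p of 0.274. Without that library its change was 0.0123 with an SE of 0.00367 and an adjusted p of 1.0.

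The other 3 lay in 3 loci. The bin of Olfr506 to Olfr510 (chr7:108600001-108700000) changed from -0.00296 to 0.00755 in the untreated pair and from -0.0190 to 0.00761 in the UNC0642 pair. Its limma change of 0.0186 had an adjusted p of 0.336, but without the Setdb1 WT + UNC library the change was 0.00841 with an SE of 0.00382 and an adjusted p of 1.0. The bin of Olfr722, Olfr723 and Olfr724 (chr14:49900001-50000000), at the end of the chromosome 14 locus, stayed in the B compartment and went from -0.0191 to -0.00363 and from -0.0290 to -0.00629. The bin of Olfr859, Olfr860 and Olfr862 (chr9:19800001-19900000), again in the Olfr828 to Olfr873 locus, went from -0.0194 to -0.00809 and from -0.0241 to -0.0122. None of these changes passed the test, with that library or without it.

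The means of the other loci changed less. Among loci of at least 2 bins, the second largest positive change without UNC0642 was in Olfr1356 to Olfr57 on chromosome 10 (chr10:78800001-79100000, 3 bins) with 0.00489, and the most negative changes were -0.00308 in Olfr1513 to Olfr1507 and -0.00246 in Olfr1408 to Olfr220 on chromosome 1 (chr1:173100001-174500000, 6 bins). With UNC0642, Olfr165 to Olfr171 changed by 0.0164, Olfr55 to Olfr63 on chromosome 17 (chr17:33100001-33300000, 2 bins) changed by -0.00571 and Olfr1416 to Olfr12 by -0.00403. Taking the median over its bins, Olfr165 to Olfr171 gave 0.0232, more than Olfr828 to Olfr873 with 0.0201, and Olfr1416 to Olfr12 gave 0.000292. Of the 38 loci, 27 were higher without and 28 with UNC0642, 19 in both pairs, and 2 were lower in both. Comparable windows outside the loci were not counted, so these counts have no background share. Those with UNC0642 and in both pairs use the Setdb1 WT + UNC library. Either pair changed the compartment of 20 Olfr bins (7.04%, against 7.97% of all bins), and the untreated pair alone that of 13 (4.58%, against 3.22%). The largest locus, Olfr987 to Olfr1272, changed by 0.000534 and 0.00126, and the class I locus by -0.00113 and 0.000372.

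With UNC0642, which blocks G9a and GLP, Olfr bins were lower in the Setdb1 WT pair, and no Olfr bin passed the test over the 4 backgrounds. In the Setdb1 WT pair, 30 Olfr bins in 10 loci fell by at least 0.01 and 0 rose, or 10.6% falling against 4.62% of all bins and none rising against 3.51% of all bins. That pair holds the library that stood apart, and without it the test over backgrounds had 1 rising and 7 falling Olfr bins at an unadjusted p under 0.05 (0.352% and 2.46%, against 2.61% and 2.97% of all bins). In the same pair 7 of the 60 Vmn1r bins fell (11.7%) and 1 rose (1.67%), while 1 of the 21 Vmn2r bins fell (4.76%) and 3 rose (14.3%). In Setdb1 KO cells 1 Olfr bin rose and 1 fell, against 0.755% and 0.934% of all bins. In Suv39h WT cells 2 rose and 5 fell (0.704% and 1.76%), against 2.26% and 2.53% of all bins. In Suv39h DKO cells 1 rose and 14 fell (0.352% and 4.93%), against 3.04% and 3.69% of all bins. This split depended on where 0 lies. With the implied chromosome mean added to the scores, 9 Olfr bins rose and 7 fell, beside 1383 and 521 of all 23972 bins. With it subtracted, 0 rose and 22 fell, beside 384 and 1508. The limma test over the 4 backgrounds called 0 of all bins (0%), with 3 Olfr bins rising and 9 falling at an unadjusted p under 0.05 (1.06% and 3.17%, against 2.3% and 2.65% of all bins) and a lowest adjusted p of 0.957 among the Olfr bins.

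The chromosome 9 locus Olfr828 to Olfr873 changed by -0.0145 with UNC0642 in Setdb1 WT cells, where all 11 bins were lower, but by -0.00140 in Setdb1 KO, 0.00134 in Suv39h WT and -0.00235 in Suv39h DKO cells. Whether the effect of UNC0642 differed between the lines was tested with a line by UNC0642 term, which called 0 bins (0%), with 7 Olfr bins positive and 0 negative at an unadjusted p under 0.05 (2.46% and 0.0%, against 1.86% and 1.81% of all bins). Without the Setdb1 WT + UNC library 0 were positive and 2 negative (0.0% and 0.704%, against 1.45% and 1.6% of all bins). Olfr165 to Olfr171 changed by -0.00985 in Setdb1 WT, 0.00179 in Setdb1 KO, -0.00608 in Suv39h WT and -0.00727 in Suv39h DKO cells. Only 3 of 38 loci were lower in all 4 backgrounds, Olfr520 to Olfr521 on chromosome 7, Olfr1356 to Olfr57 and Olfr55 to Olfr63. Another 3 were higher in all 4, Olfr1416 to Olfr12, Olfr70 to Olfr155 and Olfr522 to Olfr541 on chromosome 7.

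The remaining loci of at least 2 bins with the largest changes under UNC0642 changed by less than 0.01. In Setdb1 WT cells the positive changes were 0.00494 in Olfr287 to Olfr279 on chromosome 15 (chr15:98200001-98500000, 3 bins) and 0.00488 in Olfr1416 to Olfr12. In Setdb1 KO cells Olfr693 to Olfr519 changed by 0.00258, Olfr1513 to Olfr1507 by 0.00219, Olfr55 to Olfr63 by -0.00753 and Olfr1356 to Olfr57 by -0.00255. In Suv39h WT cells Olfr30 to Olfr223 changed by 0.00349, Olfr1369-ps1 to Olfr1359 on chromosome 13 (chr13:21100001-21700000, 3 bins) by 0.00324, and Olfr275 to Olfr270 on chromosome 4 (chr4:52800001-53000000, 2 bins) by -0.00608. In Suv39h DKO cells Olfr275 to Olfr270 changed by 0.00546, Olfr173 to Olfr209 by 0.00493 and Olfr55 to Olfr63 by -0.00928. Olfr275 to Olfr270 thus moved in opposite directions in the 2 Suv39h clones, a difference that was not tested locus by locus. Any of the 4 contrasts changed the compartment of 19 Olfr bins (6.69%, against 11.3% of all bins), and any of the 3 that do not use Setdb1 WT + UNC that of 15 (5.28%, against 8.94%).

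With loss of SUV39H1/2, Olfr bins passed the step of 0.01 no more often than all bins in 3 of 4 counts, and none passed the test. Without UNC0642, 8 Olfr bins rose by at least 0.01 and 6 fell (2.82% and 2.11%), against 3.64% and 3.73% of all bins. With UNC0642, 4 rose and 13 fell (1.41% and 4.58%), against 2.98% and 3.86% of all bins. The balance with UNC0642 depended on where 0 lies. With the implied chromosome mean added, 8 Olfr bins rose and 5 fell, beside 1212 and 576 of all 23972 bins. With it subtracted, 2 rose and 17 fell, beside 424 and 1431. The median change of the Olfr bins was 0.000321 and -0.000109, and 72 bins (25.4%) were higher and 71 (25%) lower in both pairs, against 28.6% and 27.4% of all bins. The limma test called 0 of all bins (0%), and the lowest adjusted p of an Olfr bin was 0.356. At an unadjusted p under 0.05, 5 Olfr bins rose and 9 fell (1.76% and 3.17%), against 4.76% and 4.85% of all bins. The compartment changed in 9 Olfr bins in either pair (3.17%, against 7.55% of all bins).

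No Olfr bin rose by at least 0.01 in both SUV39H1/2 pairs (0.35% of all bins), and 2 fell (0.704%, against 0.509% of all bins). The bin of Olfr738, Olfr739, Olfr740 and Olfr741 (chr14:50400001-50500000) had -0.0140 in the wild type, -0.0118 in the wild type with UNC0642, -0.0278 in the DKO and -0.0265 in the DKO with UNC0642. The limma change was -0.0142 with an SE of 0.00310 and an adjusted p of 0.356. The bin of Olfr878 and Olfr881 (chr9:37900001-38000000) had -0.0248, -0.0262, -0.0376 and -0.0371 in the same order, a limma change of -0.0119 with an SE of 0.00293 and an adjusted p of 0.357. In both bins the clones did not overlap, and both were B in all 8 libraries.

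Among loci of at least 2 bins, the largest changes in each direction without UNC0642 were 0.00865 in Olfr30 to Olfr223, 0.00538 in Olfr1344 to Olfr1350 on chromosome 7 (chr7:6400001-6600000, 2 bins), -0.00743 in Olfr275 to Olfr270 and -0.00465 in Olfr458 to Olfr47 on chromosome 6 (chr6:42400001-43300000, 6 bins). With UNC0642 they were 0.00657 in Olfr1378 to Olfr1375, 0.00451 in Olfr1416 to Olfr12, -0.00575 in Olfr55 to Olfr63 and -0.00567 in Olfr1369-ps1 to Olfr1359. No locus mean changed by 0.01 in either pair. Of the 38 loci, 15 were higher in both pairs and 6 lower, again with no comparable windows counted. Olfr828 to Olfr873, the locus with the largest mean SETDB1 difference, in which no bin passed that test, changed by 0.00123 and -0.00246.

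The untreated wild-type libraries of the 2 lines differed more than most treated pairs. From Setdb1 WT to Suv39h WT, 4 Olfr bins were higher by at least 0.01 and 28 in 12 loci lower (1.41% and 9.86%), against 5.68% and 6.27% of all bins. Among loci of at least 2 bins, the largest differences were in Olfr1396 to Olfr1380 on chromosome 11 (chr11:49100001-49600000, 5 bins) with -0.0140, Olfr828 to Olfr873 with -0.0119, Olfr1513 to Olfr1507 with 0.0122 and Olfr458 to Olfr47 with 0.00580. The limma contrast of the lines, over the wild-type libraries with and without UNC0642, called 87 of all bins (0.363%) and 0 Olfr bins. Its lowest adjusted p among the Olfr bins was 0.0569, in the bin of Olfr465-ps1 and Olfr466 (chr13:65100001-65200000), with a change of -0.0176 and an SE of 0.00321. In the Setdb1 line its score was 0.0136 untreated, 0.00349 with UNC0642, 0.0196 after SETDB1 loss and 0.0217 after SETDB1 loss with UNC0642. In the Suv39h lines it was -0.00781 in the wild type and -0.0103 with UNC0642 added, and -0.00103 in the DKO and -0.00375 with UNC0642 added. It was in the A compartment in every library of the Setdb1 line and in the B compartment in every Suv39h library. Without the Setdb1 WT + UNC library, 1 Setdb1 WT library is set against 2 Suv39h WT libraries, and its spread is assumed to be that of the other groups. In that fit 3 Olfr bins (1.06%) passed the test of the lines, all lower in the Suv39h line, against 168 of all bins (0.701%). The bin of Olfr465-ps1 and Olfr466 was among them, with a change of -0.0221, an SE of 0.00349 and an adjusted p of 0.0393.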

How the data were processed

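The authors cut the chromatin with DpnII, mapped the reads to mm10 (mapping quality above 10) and computed, with Juicer, eigenvectors of KR-normalised maps of single autosomes at 100 kb. The deposited files hold this compartment score per bin, 1 file for each library. They carry no read counts. The study lists read numbers for its Hi-C libraries, which were not used here, since they cannot be tied to a file that may hold 1 repeat or a pool. Genes came from GENCODE vM21 and sequence from GRCm38.p6, whose coordinates match mm10. Bins scored in all 8 libraries were used. Differences between 2 libraries were described with a step of 0.01. limma 3.58.1 (R 4.3.3) was fitted to all bins with a term for background (the block) and another for UNC0642, with Benjamini-Hochberg adjustment at 0.05, and was tested on simulated data. Named loci were the 5 largest, the 2 highest and 2 lowest, those on either side of 0, and in each of the 9 contrasts the 2 largest rises and falls among loci of at least 2 bins. The members and gene lists were chosen with earlier results of these data known. Olfr151 was not found under that symbol and is not reported. Alternatives were scalings, centrings, GC removal, other member rules, limma settings and left-out libraries.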

Additional observations from a re-analysis of the deposited data

How the results depend on the processing

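No group holds replicates, so no comparison between 2 libraries can be checked within a group, and the limma tests rest on additive effects over backgrounds. The files give no counts, so no limit by depth was computed. The labels give no replicate numbers and no replicate block could be fitted. The background block pairs treated with untreated libraries for UNC0642, and without it the test also called 0 Olfr bins. Scaling by the root mean square, quantile normalization and counting Olfr pseudogenes moved no share of Olfr bins beyond its interval, and no Olfr bin count past the adjusted threshold turned direction. The change of Olfr1416 to Olfr12 with SETDB1 loss under UNC0642, which no test called, went from -0.00403 to 0.000292 with the median over bins, and the unadjusted line by UNC0642 counts went from 7 positive and 0 negative to 0 and 2 without the Setdb1 WT + UNC library. Libraries are given below with the wild type before the knockout, each untreated and then with UNC0642, and the Setdb1 line before the Suv39h lines, leaving out those that stayed within their interval.

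The A compartment share of the Olfr bins depended on where 0 lies. Adding back the implied chromosome mean gave 21.5%, 23.6%, 25%, 18.7%, 16.5% and 17.3% (without Setdb1 WT + UNC and Suv39h DKO), and subtracting it gave 9.15%, 9.15%, 10.2%, 9.51% and 8.45% (the Setdb1 line and Suv39h WT). Bins with at least 1 Olfr start gave 18.6%, 17.7%, 21.0%, 21.3%, 16.5%, 15.9%, 17.1% and 16.5%, and bins with at least 5 gave 8.33% after SETDB1 loss, 5.95% when UNC0642 was added to it and 4.76% in the other 6.

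The share of Olfr bins changed by at least 0.01, in bins with at least 5 starts, was 4.76% for UNC0642 in Setdb1 WT, 10.7% for SETDB1 loss under UNC0642, 0.0% for UNC0642 in Suv39h WT, 1.19% for SUV39H1/2 loss and 2.38% for UNC0642 in Suv39h DKO. With a step of 0.02 it was 1.06% for UNC0642 in Setdb1 WT, 4.58% for SETDB1 loss under UNC0642, 2.46% between the wild-type lines and 0.0% in the other 6 contrasts. These shares count rises and falls together, so they do not show a change in the balance of the directions.

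The share that switched compartment, with the mean added, was 5.28% for UNC0642 in Setdb1 WT, 10.2% for SETDB1 loss under UNC0642, 3.52% and 4.93% for UNC0642 in Suv39h WT and DKO, 4.23% for SUV39H1/2 loss under UNC0642 and 6.34% between lines. With the mean subtracted it was 0.704% for UNC0642 in Setdb1 WT, 1.76% for SETDB1 loss, 2.11% for UNC0642 in Setdb1 KO, 1.06% for SETDB1 loss under UNC0642 and 0.704% between lines. Where the control score was 0.005 or more in size it was 0.383% and 0.0% for UNC0642 in Setdb1 WT and KO, 2.3% for SETDB1 loss, 0.0% and 0.375% for UNC0642 in Suv39h WT and DKO, 0.376% and 0.0% for SUV39H1/2 loss without and with UNC0642, and 1.15% between lines.

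The limma counts of Olfr bins stayed at 0 for both losses, for UNC0642 and for its interaction with the line under every alternative run, with lowest adjusted p from 0.244 to 1.0 for SETDB1 loss, 0.285 to 0.428 for SUV39H1/2 loss, 0.528 to 1.0 for UNC0642 and 0.355 to 1.0 for the line term. For the line difference (lowest adjusted p 0.0239 to 0.108), 1 Olfr bin passed with GC content removed, an alternative chosen after seeing the data, and 3 without the Setdb1 WT + UNC library, where the Setdb1 WT side is 1 library assumed to vary like the other groups. The cause of these shifts was not tested.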
